A study of Populus euphratica with 12 samples.

Results

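Lanceolate (La) leaves were compared with linear (Li) leaves of *Populus euphratica*, a desert poplar in which 1 tree species bears leaves of different shapes. La leaves came from trees of 4 to 6 years and Li leaves from trees of 0 to 3 years, with 3 libraries in each group (La1 to La3 and Li1 to Li3). In both groups the second juvenile leaf was taken in April, and total RNA without ribosomal RNA was sequenced with the strand kept. The other 6 of the 12 libraries, from ovate (Ov) leaves of 8 to 12 years and broad-ovate (Bo) leaves of over 20 years, shared the estimate of the spread and are otherwise given only as values. Leaf shape and tree age changed together between La and Li and cannot be told apart. The libraries of a group were described as biological replicates, but no source stated whether they came from separate trees, so the p-values measure the spread between libraries, part of which may be technical.

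RNAs entered the comparison by their level in the 6 La and Li libraries alone. An mRNA or lncRNA was included when its mean over these libraries was at least 0.5 FPKM (fragments per kilobase of transcript, scaled to the number of fragments in the library), and a circRNA when it was above 0 in at least 2 of the 6. This left 31639 of the 49676 mRNAs listed, 1313 of 4460 lncRNAs and 218 of 1149 circRNAs. The mRNAs left out numbered 18037, and 48288 of all mRNAs were above 0 in at least 1 of the 6 libraries. At the edge of the rule, XM_011039998.1 was included with a mean of 0.500008 FPKM, of which 2.50 FPKM in Li2 made up most, and XM_011036946.1 was left out with a mean of 0.499957 FPKM.

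A leaf takes its shape from how long cells keep dividing along each axis of the young blade and how far they then expand. Auxin, gibberellin and brassinosteroid act on both steps, and transcription factors of the TCP, YABBY and OVATE families pattern the blade. In many trees the shift from juvenile to adult leaves is tied to SPL factors, which switch on MADS-box genes of the flowering pathway. Long non-coding RNAs (lncRNAs) can act near the genes beside which they are made, and circular RNAs (circRNAs) arise when a splice joins the end of an exon back to the start of an earlier one.

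The 3 Li libraries did not stand equally close to one another. Spearman's correlation over the mRNAs was 0.946 between Li2 and Li3, but only 0.898 between Li1 and Li2 and 0.902 between Li1 and Li3. Li1 was closer to La2 (0.911) and La1 (0.903) than to Li2. La3 was the library farthest from the Li group, with 0.813 to Li2 and 0.826 to Li3. The mean over the 9 pairs of a La with a Li library was 0.863, against 0.878 within La and 0.915 within Li. All 6 libraries held green leaf RNA, with 1609 to 5655 FPKM of the Rubisco small chain mRNA XM_011022942.1. Medians of gene lists that moved by over 1.5 times without a single library are therefore given with and without it, or with their range. How many reads stand behind an FPKM value could not be worked out from the files. The libraries were of similar size, 83.0 to 86.0 Mreads for the 6 as worked out from the circRNA values.

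Of the 31639 mRNAs, 9 (0.0284%) differed between La and Li at an adjusted p under 0.05 (limma on log2(FPKM + 1), Benjamini-Hochberg adjustment), 4 of them higher (0.0126%) and 5 lower (0.0158%) in La. With no adjustment 4412 mRNAs (13.9%) had a p under 0.05, 2651 higher (8.38%) and 1761 lower (5.57%). That split of 60.1% higher depended on the scale of the libraries, since 48.3% were higher after scaling to the upper quartile. In 8090 mRNAs (25.6%) the groups did not overlap, 4012 with all La libraries above all Li libraries (12.7%) and 4078 with all La libraries below (12.9%). The median difference over all mRNAs was -0.01 on the log2 scale. Without Li1 the number that passed was 164 (111 higher, 53 lower), and it lay between 3 and 18 without any other single library. Of the mRNAs that passed without La3, without Bo1 or without Bo2, 0 were higher in La. The La and Ov libraries of the same number deviated together, and 4 mRNAs passed when they were treated as correlated.

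**Figure D1:**
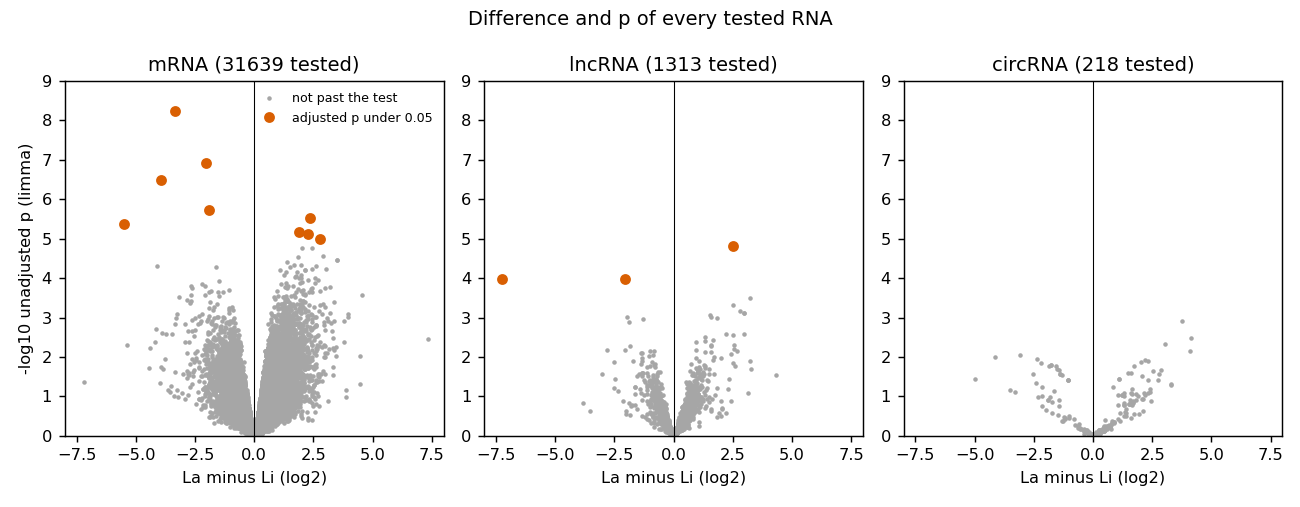
Difference between La and Li (log2 scale, x axis) against -log10 of the unadjusted limma p (y axis) for every mRNA, lncRNA and circRNA tested. Orange points passed at an adjusted p under 0.05 (9 mRNAs, 3 lncRNAs and 0 circRNAs), and the points spread to both sides of 0.

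The difference between groups varied with the level of the mRNA. Among the 1348 mRNAs with a mean of at least 100 FPKM, 420 had all La libraries below all Li libraries and 157 had them above, and the median difference was -0.25. Among the 10389 mRNAs from 5 to 20 FPKM the numbers were 1378 below and 1500 above, with a median of 0.00. From 1 to 5 FPKM 987 lay below and 1157 above, and from 20 to 100 FPKM 1040 lay below and 867 above. The share below therefore grew with the level, most of all in the mRNAs of at least 100 FPKM.

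The 4 mRNAs that rose in La included 1 with a product name. XM_011044761.1 (LOC105138623) encodes a MADS-box protein like JOINTLESS, which in tomato is needed for the abscission zone of the flower stalk. It had 39.8, 44.7 and 47.9 FPKM in La1 to La3, against 11.9, 7.16 and 16.1 FPKM in Li1 to Li3. All La libraries lay above all Li libraries, and the mean was 44.1 ± 4.06 FPKM in La and 11.7 ± 4.46 FPKM in Li (SD, n = 3), a difference of 1.89 ± 0.24 (log2, SE, limma adjusted p = 0.0300). The level stayed high in Ov (42.4, 48.9 and 50.1 FPKM) and Bo leaves (58.1, 56.2 and 55.4 FPKM). The adjusted p ran from 0.0183 to 0.216 over the alternative settings. The call was lost in 10 of 22 of them, among them without any single La library, without Li2 and with only the La and Li libraries fitted (limma adjusted p = 0.109), and it was kept with La and Ov numbers treated as correlated (limma adjusted p = 0.0453). Leaving out Ov2, Bo1 or Bo2, which entered only the estimate of the spread, also ended the call.

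The other 3 mRNAs that rose carry only locus numbers. XM_011029388.1 (LOC105127908) had 15.8, 28.2 and 25.7 FPKM in La, against 5.02, 3.36 and 2.69 FPKM in Li, a log2 difference of 2.36 ± 0.27 (SE, limma adjusted p = 0.0191). XM_011037048.1 (LOC105133184) had 8.502, 14.4 and 14.3 FPKM in La, against 1.98, 1.76 and 1.48 FPKM in Li, a difference of 2.26 ± 0.29 (limma adjusted p = 0.0300). In both, La1 was the lowest La library and still stood well above Li1, the highest of Li. In Bo leaves XM_011029388.1 had 8.53, 9.01 and 8.29 FPKM and XM_011037048.1 had 7.01, 8.84 and 4.42 FPKM, between the La and the Li levels. Both calls were lost without La2, La3, Li2, Li3, Bo1 or Bo2 (adjusted p up to 0.216 over the settings), and that of XM_011037048.1 also without Ov2. They were also lost with La and Ov numbers treated as correlated (limma adjusted p = 0.0582 for both) and with only the La and Li libraries fitted (limma adjusted p = 0.0877 and 0.0798).

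The fourth, XM_011040880.1 (LOC105135819), had 13.4, 4.37 and 7.01 FPKM in La, against 0.00828, 0.573 and 0.200 FPKM in Li, a log2 difference of 2.78 ± 0.36 (SE, limma adjusted p = 0.0351). It is 1 of 4 transcripts of its gene, and transcripts of a gene share reads. Another of them, XM_011040882.1, had 0.00236, 1.42 and 7.82 FPKM in La, against 7.23, 0.596 and 0.855 FPKM in Li. Summed over the gene, La had 12.0 ± 5.36 FPKM and Li 3.32 ± 3.696 FPKM (SD, n = 3), with an overlap between La2 (6.03 FPKM) and Li1 (7.59 FPKM), and the sum did not pass (limma adjusted p = 0.199). The call for the single transcript was lost in 13 of 21 alternatives, among them without La1, La3, Li2, Li3, Ov2, Bo1 or Bo2. It was also lost with La and Ov numbers treated as correlated (limma adjusted p = 0.0582).

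Of the 5 mRNAs that fell, 4 were near 0 in La. XM_011047138.1 (LOC105140344) encodes a protein like the mitochondrial tRNA-specific 2-thiouridylase, which modifies transfer RNAs. It had at most 0.00117 FPKM in any La library, against 3.15, 3.12 and 3.07 FPKM in Li, a log2 difference of -2.04 ± 0.17 (SE, limma adjusted p = 0.00191). The Ov and Bo libraries were also near 0, at most 0.000188 FPKM, so the transcript was seen in the 3 Li libraries and in none of the other 9. No library left out ended this call, but it was lost when only the La and Li libraries were fitted (limma adjusted p = 0.0796).

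XM_011006321.1 (LOC105111078) followed the same pattern. It was below 0.1 FPKM in all La libraries, against 23.7, 8.11 and 14.6 FPKM in Li, a log2 difference of -3.93 ± 0.36 (SE, limma adjusted p = 0.00348). Among the other groups only Ov1 held any, at 0.907 FPKM. This call was lost with only the La and Li libraries fitted (limma adjusted p = 0.0588) and with a filter of 5 FPKM. XM_011017359.1 (LOC105119234) had 0.409 FPKM in La2 and less than 0.1 FPKM in La1 and La3, against 20.3, 65.1 and 88.5 FPKM in Li, a difference of -5.48 ± 0.66 (limma adjusted p = 0.0222). Its spread within Li was wide, and the call was lost in 14 of 22 alternatives. Among these were the fits without any single La library, without Li2, Li3, Bo1 or Bo2, and with La and Ov numbers treated as correlated (limma adjusted p = 0.0582).

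XM_011042175.1 (LOC105136723) had the smallest p of all mRNAs. It had at most 0.00601 FPKM in La, against 9.53, 9.89 and 8.41 FPKM in Li, a log2 difference of -3.36 ± 0.21 (SE, limma adjusted p = 0.000187). Across the shape groups it was not ordered by age, since Bo leaves had 10.3, 8.14 and 7.71 FPKM and Ov leaves at most 0.159 FPKM. The gene has 5 transcripts, and XM_011042174.1 ran the other way, with 17.8, 16.9 and 14.01 FPKM in La, against 11.6, 4.51 and 5.44 FPKM in Li. The sum over the gene was 19.7 ± 2.67 FPKM in La and 18.7 ± 4.15 FPKM in Li (SD, n = 3), a log2 difference of 0.08 ± 0.22 (limma adjusted p = 0.854). The transcript, and not the total of its gene, therefore carried the difference.

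XM_011015602.1 (LOC105117832) was the only mRNA of the 5 with a clear level in both groups. It had 23.5, 33.8 and 34.4 FPKM in La, against 93.3, 122.8 and 132 FPKM in Li, a log2 difference of -1.90 ± 0.21 (SE, limma adjusted p = 0.0149). Li stood apart from all other groups, with 34.2, 27.2 and 24.9 FPKM in Ov and 34.4, 33.1 and 36.4 FPKM in Bo. The call was lost in 7 of 22 alternatives, among them without La2, Li2, Li3 or Bo2. It was also lost with La and Ov numbers treated as correlated (limma adjusted p = 0.0582) and with only the La and Li libraries fitted (limma adjusted p = 0.0801).

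**Figure D2:**
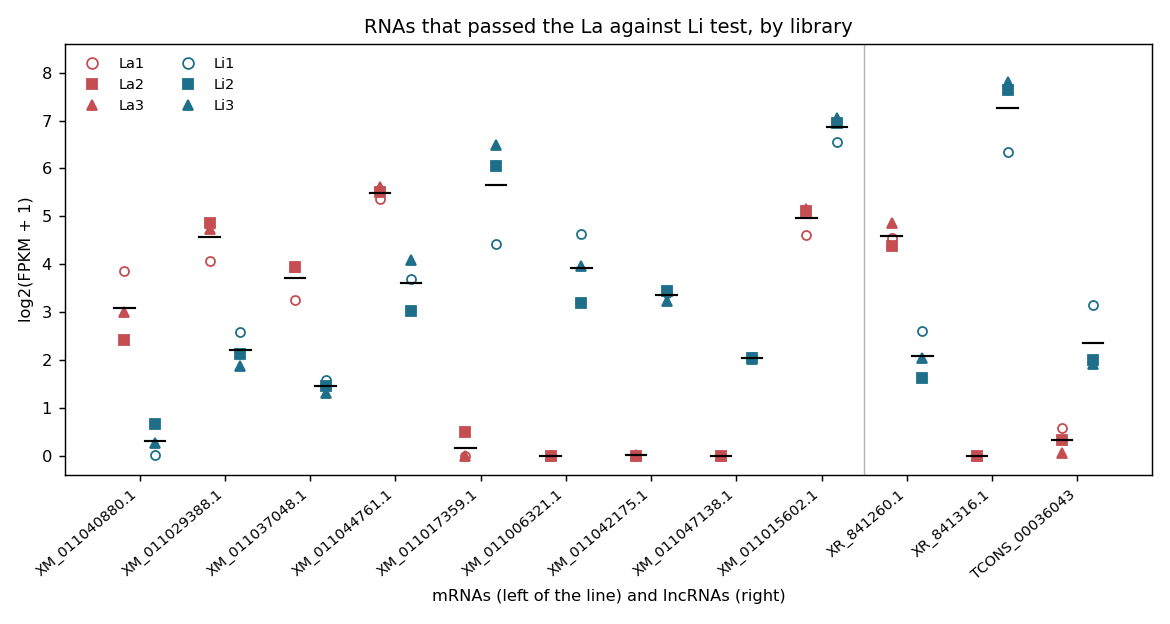
Level of the 9 mRNAs and 3 lncRNAs that passed the test (adjusted p under 0.05), as log2(FPKM + 1) on the y axis, with 1 point for each library, La left of Li and bars at the group means. No La point overlaps the Li points of the same RNA, and 6 of the 12 RNAs are below 0.5 FPKM in every La library.

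Some transcripts were near 0 throughout 1 group. In 16 mRNAs all Li libraries were above 1 FPKM and all La libraries at or below 0.1 FPKM, and in 7 mRNAs the reverse held. Of the 16, 3 passed the test, 8 belonged to genes with several transcripts, and in 11 the sum over the gene was switched in the same way. Of the 7, none passed, 4 belonged to genes with several transcripts, and in 3 the gene sum was switched. These numbers count values near 0 from reads divided between transcripts, so they do not show that a gene was silent.

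Summing the transcripts of each gene (an alternative chosen after the values were seen) left 23991 genes, of which 17 passed, 13 higher and 4 lower in La. The genes of 7 of the 9 mRNAs above were among them, all but LOC105135819 and LOC105136723. The lowest adjusted p among the genes that were higher was 0.00316, for LOC105135809, which had 8.83, 11.9 and 6.87 FPKM in La, against 0.650 FPKM in Li2 and near 0 in Li1 and Li3. It was also high in Ov (12.8, 8.30 and 9.59 FPKM) and near 0 in Bo.

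The 10 mRNAs in each direction with a gene or product name and the largest differences did not pass the adjustment and are given as values. Their groups did not overlap, because the rule that chose them required it. The gibberellin-regulated protein 1-like mRNA (XM_011046794.1), of a family of small secreted peptides induced by gibberellin, had 155, 98.6 and 718 FPKM in La, against 26.7, 5.78 and 14.02 FPKM in Li (log2 difference 3.98 ± 0.87, SE, limma adjusted p = 0.150). La3 was far above the other La libraries. AMY1, an alpha-amylase that breaks down starch, had 74.1, 49.7 and 104 FPKM in La, against 11.1, 3.88 and 5.13 FPKM in Li (3.37 ± 0.78, limma adjusted p = 0.159).

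Genes of ethylene and of stress proteins were among these mRNAs. The mRNA of a 1-aminocyclopropane-1-carboxylate synthase (XM_011024974.1), the enzyme that makes the precursor of ethylene, had 24.04, 13.8 and 49.02 FPKM in La, against 2.89, 1.34 and 2.42 FPKM in Li (3.07 ± 0.69, limma adjusted p = 0.151). An EIN3-binding F-box protein mRNA (XM_011017944.1), whose product in Arabidopsis marks an ethylene factor for degradation, had 9.29, 12.3 and 8.20 FPKM in La, against 1.83 and 1.46 FPKM in Li1 and Li3 and near 0 in Li2 (2.50 ± 0.90, limma adjusted p = 0.286). The osmotin-like OSM34 mRNA (XM_011030919.1) had 41.4, 24.98 and 102 FPKM in La, against 6.32, 3.91 and 4.62 FPKM in Li (3.05 ± 0.48, limma adjusted p = 0.0742), and it passed in 2 of 22 alternatives. In AMY1, the synthase and OSM34, La3 was the highest and La2 the lowest La library, and Li1 the highest Li library.

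A myb-related Zm38-like mRNA (XM_011047545.1) had 27.6, 16.0 and 37.4 FPKM in La, against 7.53, 1.97 and 2.76 FPKM in Li. A probable mannitol dehydrogenase mRNA (XM_011027119.1) had 15.4, 14.6 and 46.8 FPKM in La, against 3.46, 2.60 and 3.60 FPKM in Li. Their differences were 2.54 ± 0.53 and 2.46 ± 0.46 (log2, SE), with limma adjusted p of 0.133 and 0.104.

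RGLG4, a RING-type ubiquitin ligase, was named 3 times by the rule, in both directions. XM_011015998.1 had 80.4, 101 and 75.5 FPKM in La, against 61.7, 0.2504 and 2.04 FPKM in Li, and XM_011015984.1 had 41.2, 50.3 and 68.3 FPKM in La, against 31.7, 2.84 and 4.24 FPKM in Li. XM_011015991.1 had at most 0.345 FPKM in La, against 0.850, 7.76 and 7.50 FPKM in Li. In all 3 transcripts Li1 lay nearer to the La libraries than to Li2 and Li3, and each passed without Li1 (lowest adjusted p 0.000323, 0.00123 and 0.000547) but with all libraries had limma adjusted p of 0.212, 0.166 and 0.150. The sum over the 5 transcripts was 198 ± 20.6 FPKM in La and 91.9 ± 46.2 FPKM in Li (SD, n = 3, log2 difference 1.203 ± 0.32, limma adjusted p = 0.162).

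Differences of other transcripts were smaller or lost when the gene was summed. XM_011025181.1 of VAP27-2, a membrane protein of the endoplasmic reticulum, was near 0 in all La libraries, against 0.994, 10.3 and 11.9 FPKM in Li, while the 7 transcripts together gave 30.5 ± 8.70 FPKM in La and 26.5 ± 5.34 FPKM in Li (SD, n = 3). XM_011050430.1 of a signal peptide peptidase-like 1 gene had 2.08, 0.816 and 0.451 FPKM in La, against 5.13, 7.504 and 6.26 FPKM in Li, and its gene summed to 14.6 ± 3.40 FPKM in La and 14.8 ± 1.36 FPKM in Li. XM_011047284.1 of NTMC2T6.2 had 374, 334 and 153 FPKM in La, against 127, 13.6 and 20.3 FPKM in Li. Its gene summed to 437 ± 45.1 FPKM in La and 248 ± 28.2 FPKM in Li (log2 difference 0.82 ± 0.33, limma adjusted p = 0.275), a smaller difference than that of the transcript (2.97 ± 0.86), but with every La sum above every Li sum.

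Among the named mRNAs that were lower in La, DME encodes DEMETER, a DNA glycosylase that removes methylated cytosine in Arabidopsis. It had 2.62, 2.36 and 0.443 FPKM in La, against 7.36, 11.5 and 6.04 FPKM in Li (-1.80 ± 0.43, SE, limma adjusted p = 0.160), and the gene sum differed to a like degree (2.40 ± 1.08 FPKM in La and 8.84 ± 2.47 FPKM in Li, SD, n = 3). GER3, a germin-like protein of the cell wall, had 82.4, 94.3 and 48.0 FPKM in La, against 206, 309 and 226 FPKM in Li (-1.74 ± 0.58, limma adjusted p = 0.261). A SPIRAL1-like 1 mRNA (XM_011013550.1), of a family that binds microtubules in Arabidopsis, had 48.1, 5.03 and 2.40 FPKM in La, against 81.5, 56.6 and 74.5 FPKM in Li (-2.83, limma adjusted p = 0.300). The other transcript of its gene, XM_011013555.1, ran the other way, with 4.11, 19.4 and 5.91 FPKM in La, against 1.42, 1.33 and 0.117 FPKM in Li. Together they gave 28.3 ± 22.2 FPKM in La and 71.8 ± 12.7 FPKM in Li (SD, n = 3), a smaller difference of -1.63 ± 0.78 (SE, limma adjusted p = 0.323).

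For the other 4 named mRNAs that were lower, the groups were apart by the rule that chose them. An ADP-ribosylation factor-like 8B mRNA (XM_011008932.1) had 0.00333, 0.672 and 4.93 FPKM in La, against 6.72, 19.2 and 25.9 FPKM in Li. A nicotianamine synthase-like mRNA (XM_011040620.1), for an enzyme of metal transport, had 0.589, 0.195 and 0.145 FPKM in La, against 1.17, 10.9 and 3.14 FPKM in Li. A phenolic glucoside malonyltransferase 1-like mRNA (XM_011011439.1) had 8.26, 8.03 and 2.05 FPKM in La, against 26.3, 34.3 and 12.6 FPKM in Li, and the uncharacterised XM_011004448.1 had 7.12 and 0.959 FPKM in La1 and La3 and near 0 in La2, against 8.24, 11.3 and 9.71 FPKM in Li. Their limma adjusted p values ran from 0.160 to 0.222.

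Genes were next described in lists drawn up by symbol. No member of any of these lists passed the adjusted test (limma), so each list is given by its counts at an unadjusted p under 0.05, by how many members had groups that did not overlap, and by its median difference. For scale, the 3025 tested mRNAs with a gene symbol other than a locus number had 193 higher and 229 lower at an unadjusted p under 0.05, 327 with La above and 504 with La below, and a median of -0.07. Over all mRNAs 12.7% lay above and 12.9% below, and the shares of each list stand beside these.

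DNA replication and cell division genes were shifted towards lower values in La. Of 56 mRNAs, 20 (35.7%) had all La libraries below all Li libraries and 0 had them above, beside 12.9% and 12.7% of all mRNAs. An unadjusted p under 0.05 was reached by 10, all lower in La, and the median difference was -0.51 (log2). PCNA2, the clamp that holds the DNA polymerase, had 12.7, 9.08 and 16.2 FPKM in La, against 26.7, 52.1 and 57.7 FPKM in Li (-1.73 ± 0.76, SE, limma adjusted p = 0.348). FAS1, a subunit of the factor that places histones on new DNA, had 0.137, 0.701 and 0.343 FPKM in La, against 2.24, 8.64 and 3.87 FPKM in Li (-1.96 ± 0.54, limma adjusted p = 0.210). Its 2 transcripts summed to 3.05 ± 0.80 FPKM in La and 7.14 ± 2.54 FPKM in Li (SD, n = 3), a smaller difference of -0.98. Li1 was the lowest Li library in both genes.

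Genes that act at replication origins, picked out after their values were seen, were among the 20. All 5 tested transcripts of the origin recognition subunits (ORC2, ORC3, ORC4, ORC5 and ORC6) lay below. Of 5 tested MCM transcripts, of the helicase that unwinds DNA and its partners, MCM6, MCM10 and 1 of the 2 MCM3 transcripts lay below, while MCM4 and the other MCM3 transcript had groups that overlapped. ORC6 had 3.36, 2.48 and 3.09 FPKM in La, against 6.72, 14.3 and 13.7 FPKM in Li, and MCM3 had 7.44, 5.70 and 7.94 FPKM in La, against 14.3, 19.1 and 24.1 FPKM in Li. DUT1, which keeps uracil out of DNA, had 18.9, 14.2 and 16.4 FPKM in La, against 37.0, 68.6 and 61.9 FPKM in Li. In these genes Li2 and Li3 lay far above La, and Li1 lay between them and La.

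The shift of the division genes was larger without Li1 and smaller without La3, and with a filter of 5 FPKM the median was -0.80. Without Li1, 36 of 56 (64.3%) lay below, beside 21.6% of all mRNAs, and the median was -0.63. Without La3 the median was -0.32, and 22 of 56 (39.3%) lay below, beside 16.8% of all mRNAs. In a bulk leaf sample, fewer dividing cells and less RNA of these genes per cell cannot be told apart.

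Photosynthesis genes were also shifted towards lower values in La. Of 44 mRNAs, 13 (29.5%) had all La libraries below all Li libraries and 0 had them above, beside 12.9% and 12.7% of all mRNAs. Abundant mRNAs lay below more often, with 420 of the 1348 mRNAs of at least 100 FPKM below and 157 above. The list was not matched to other mRNAs by level. The 10 photosynthesis mRNAs with an unadjusted p under 0.05 were all lower, and the median difference was -0.42. LHCA5, a chlorophyll-binding protein of photosystem I, had 8.59, 9.13 and 3.14 FPKM in La, against 27.4, 24.98 and 12.5 FPKM in Li (-1.54 ± 0.42, SE, limma adjusted p = 0.204). LHCB3, of the antenna of photosystem II, had 108, 103 and 59.1 FPKM in La, against 219, 154 and 177 FPKM in Li (-1.05 ± 0.46, limma adjusted p = 0.345). La3 was the lowest library in both genes.

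Chlorophyll synthesis genes were among the 13. HEME1 and HEME2, for an enzyme on the path from porphyrin to chlorophyll and haem, had 3.64, 4.94 and 4.45 FPKM and 42.01, 41.1 and 25.3 FPKM in La, against 7.36, 7.23 and 7.25 FPKM and 67.7, 49.9 and 50.8 FPKM in Li. PCB2, a reductase of chlorophyll synthesis, had 14.5, 15.05 and 8.19 FPKM in La, against 27.5, 20.3 and 19.0 FPKM in Li. Unlike the division genes, most of these were highest in Li1.

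The photosynthesis shift rested in part on Li1 and La3. As a median over the 44 mRNAs, each taken relative to its own mean over the 6 libraries, the level was -0.21 in La1, 0.04 in La2 and -0.38 in La3, against 0.57 in Li1, 0.02 in Li2 and -0.01 in Li3 (log2). La2 therefore stood level with Li2 and Li3. The median difference was -0.26 without Li1, -0.38 without La3 and -0.16 without both, where 18 of 44 (40.9%) lay below and 9 (20.5%) above, beside 27.2% and 30.1% of all mRNAs. For the division genes the same levels were -0.12, -0.23 and -0.48 in La1 to La3, against 0.06, 0.38 and 0.49 in Li1 to Li3, with no overlap. By summed FPKM of the division list the groups did overlap, since La1 lay above Li1. The sums were 1385, 1240 and 697 FPKM in La1 to La3, against 1331, 1996 and 2012 FPKM in Li1 to Li3.

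**Figure D3:**
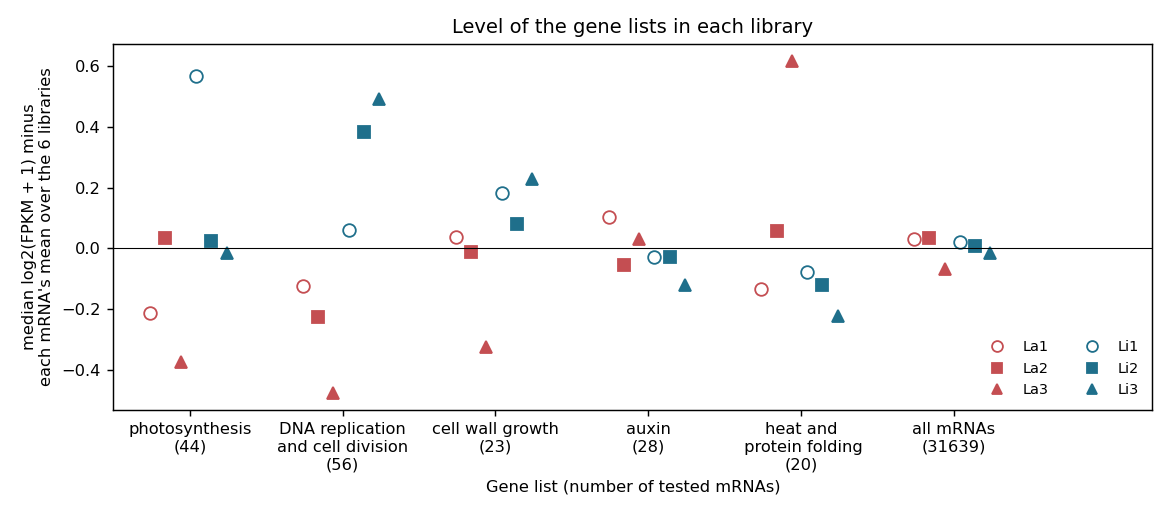
Level of 5 gene lists and of all mRNAs in each of the 6 libraries, as the median over the mRNAs of log2(FPKM + 1) minus the mRNA's mean over the 6 libraries (y axis). The division genes are lower in the 3 La libraries than in the 3 Li libraries, while the photosynthesis genes are high in Li1 (0.57) and low in La3 (-0.38), with La2 level with Li2 and Li3.

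Cell wall genes of growth included several expansins, which loosen the wall as cells enlarge. Of 23 mRNAs, 5 (21.7%) lay below and 1 (4.35%) above, beside 12.9% and 12.7% of all mRNAs. At an unadjusted p under 0.05, 3 were lower and 1 higher, and the median was -0.29. EXPA9 had 42.4, 19.7 and 52.5 FPKM in La, against 54.8, 170 and 133 FPKM in Li (-1.58 ± 0.63, SE, limma adjusted p = 0.322), and EXPA10 had 15.4, 14.7 and 18.8 FPKM in La, against 22.4, 94.99 and 59.7 FPKM in Li (-1.58 ± 0.67, limma adjusted p = 0.339). In both expansins Li1 stood close to La. PME1, a pectin methylesterase, was the member above, with 45.7, 47.6 and 45.3 FPKM in La, against 18.7, 37.3 and 40.4 FPKM in Li, while PME5 lay below, with 20.9, 20.1 and 6.69 FPKM in La, against 54.8, 32.6 and 29.3 FPKM in Li. The median moved to -0.17 without La3.

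Leaf shape and meristem regulators did not move together. Of 37 mRNAs, 4 (10.8%) lay above and 4 (10.8%) below, near the 12.7% and 12.9% of all mRNAs. The median was -0.03, with a turn in sign to 0.017 without Li2 and to 0.062 without Li3. It was -0.0080 without La2 and -0.081 without Li1. ROT3, a brassinosteroid enzyme that in Arabidopsis is needed for leaf length, had 9.05, 6.56 and 17.4 FPKM in La, against 3.15, 5.77 and 3.34 FPKM in Li (1.17 ± 0.40, SE, limma adjusted p = 0.271). OFP8, of the OVATE family, had 1.02, 2.47 and 1.23 FPKM in La, against 4.48, 5.06 and 6.23 FPKM in Li (-1.31 ± 0.70, limma adjusted p = 0.411). La2 was the La library nearest to Li in both.

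The other regulators whose groups did not overlap had smaller differences. TCP20, which in Arabidopsis links cell division to growth, had 30.3, 32.3 and 25.9 FPKM in La, against 22.3, 20.8 and 19.3 FPKM in Li (0.48 ± 0.16, SE, limma adjusted p = 0.263). AFO, the YABBY gene FILAMENTOUS FLOWER that marks the lower leaf side in Arabidopsis, had 12.2, 6.18 and 12.2 FPKM in La, against 16.4, 30.2 and 20.0 FPKM in Li (-1.06 ± 0.46, limma adjusted p = 0.344). AGO7, an Argonaute of the small RNA pathway that times leaf phase, had 7.83, 7.78 and 7.81 FPKM in La, against 9.40, 13.1 and 20.7 FPKM in Li (-0.74 ± 0.34, limma adjusted p = 0.361). The receptor kinase ER (ERECTA) lay below, and the co-repressor LUG and the boundary gene CUC3 lay above.

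Of 40 mRNAs of phase change, flowering and the clock, 6 lay above and 2 below, with a median of 0.15 (0.25 without La2). SPL8 had 18.9, 18.8 and 21.3 FPKM in La, against 12.1, 13.1 and 11.2 FPKM in Li (0.65 ± 0.20, SE, limma adjusted p = 0.230). SPA4, a partner of the light-signalling ligase COP1, had 3.29, 3.37 and 4.76 FPKM in La for XM_011031181.1, against 1.13, 1.71 and 0.963 FPKM in Li (1.09 ± 0.43, limma adjusted p = 0.313). SPL3 was the reverse, with 24.5, 19.6 and 14.3 FPKM in La, against 26.2, 36.4 and 52.0 FPKM in Li. The symbol SEP1 in this list stands, by its product name, for a stress enhanced protein of the chloroplast and not for a flowering gene. It had 35.9, 35.3 and 33.5 FPKM in La, against 88.4, 70.3 and 58.7 FPKM in Li (-1.01 ± 0.23, limma adjusted p = 0.157).

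Auxin genes had 6 of 28 mRNAs above and 1 below (21.4% and 3.57%), beside 12.7% and 12.9% of all mRNAs. At an unadjusted p under 0.05, 3 were higher and 0 lower, and the median was 0.18 (0.10 without La1). The differences were small. ARF2, an auxin response factor that limits organ growth in Arabidopsis, had 73.1, 80.8 and 111 FPKM in La, against 71.1, 55.9 and 61.0 FPKM in Li (0.47 ± 0.19, SE, limma adjusted p = 0.323). ARF19 had 5.64, 5.75 and 3.78 FPKM in La for XM_011041639.1, against 2.21, 1.68 and 3.14 FPKM in Li (0.87 ± 0.43, limma adjusted p = 0.387). IAR3, which frees auxin from its conjugates, had 52.9, 60.6 and 53.7 FPKM in La, against 41.9, 39.7 and 38.0 FPKM in Li.

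Of 26 mRNAs of gibberellin, brassinosteroid and cytokinin, 2 (7.69%) lay above and 4 (15.4%) below, near the 12.7% and 12.9% of all mRNAs. The median was -0.11 (-0.24 without La2, -0.19 without Li1 and -0.037 without Li2). The list held 2 transcripts of IPT9, a tRNA enzyme that yields cytokinin, in opposite directions. XM_011008421.1 had 6.04, 3.80 and 1.36 FPKM in La, against 12.6, 11.2 and 11.4 FPKM in Li (-1.56 ± 0.70, SE, limma adjusted p = 0.351), and XM_011008424.1 had 1.21, 3.62 and 2.77 FPKM in La, against 1.18 and 0.0106 FPKM in Li1 and Li2 and near 0 in Li3 (1.37 ± 0.60, limma adjusted p = 0.348). They share reads, so neither gives a direction for the gene.

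Lists of genes tied to other leaf cell types are given next, and a change in tissue make-up was not tested. In the epidermis and cuticle list 1 of 19 mRNAs (5.26%) lay above and 3 (15.8%) below, beside 12.7% and 12.9% of all mRNAs. The median was -0.07, and it ran from -0.31 without La1 to 0.062 without La2. CER7, which controls wax synthesis in Arabidopsis, had 3.53, 5.41 and 2.16 FPKM in La, against 6.20, 6.66 and 6.90 FPKM in Li. In the stomatal list 0 of 4 lay above and 2 (50.0%) below (median -0.93). The list includes a signal peptide that acts on stomata, so it does not mark stomatal cells alone. STOMAGEN, a peptide that promotes stomata in Arabidopsis, had 7.46, 11.0 and 2.58 FPKM in La, against 20.3, 17.7 and 20.4 FPKM in Li (-1.52 ± 0.65, SE, limma adjusted p = 0.340). The receptor TMM had 6.23, 11.7 and 2.79 FPKM in La, against 13.6, 12.6 and 19.6 FPKM in Li. The summed level of the stomatal list was 13.0 to 35.3 FPKM in La, against 45.1 to 54.0 FPKM in Li, beside the division and photosynthesis shifts, and its part in them was not tested.

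In the phloem list 3 of 9 (33.3%) lay above and 0 below, beside 12.7% and 12.9% of all mRNAs. The median was 0.33 (0.55 without La1, 0.18 without La3 and 0.22 without Li3). CALS7, which makes callose in sieve plates, had 0.511, 0.712 and 1.29 FPKM in La, against 0.129, 0.208 and 0.399 FPKM in Li, and the phloem lectin PP2-A14 had 18.1, 18.1 and 26.6 FPKM in La, against 16.8, 10.2 and 10.4 FPKM in Li. The summed level was 50.9 to 68.4 FPKM in La, against 39.4 to 49.8 FPKM in Li. Of 15 lignin and secondary wall mRNAs, 0 lay above and 1 (6.67%) below (PARVUS), with a median of -0.20 (-0.31 without La2 and -0.33 without Li1). Of 5 flavonoid mRNAs none did, with a median of -0.21 (-0.41 without La3, -0.45 without Li1 and -0.0068 without Li3).

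Of 20 mRNAs of heat and protein folding, 2 lay above and 3 below, with a median of 0.30. HSFB3, a heat shock factor, had 7.74, 12.1 and 14.4 FPKM in La, against 4.56, 1.77 and 2.53 FPKM in Li (1.67 ± 0.49, SE, limma adjusted p = 0.226), while HSP89.1 (XM_011050637.1) had 3.44, 1.33 and 1.92 FPKM in La, against 5.16, 5.30 and 5.96 FPKM in Li (-1.05 ± 0.33, limma adjusted p = 0.246). The summed level was 303 FPKM in La3 and 154 and 189 FPKM in La1 and La2, against 197 to 224 FPKM in Li, and the median was 0.13 without La3, 0.46 without La1 and 0.47 without La2.

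**Figure D4:**
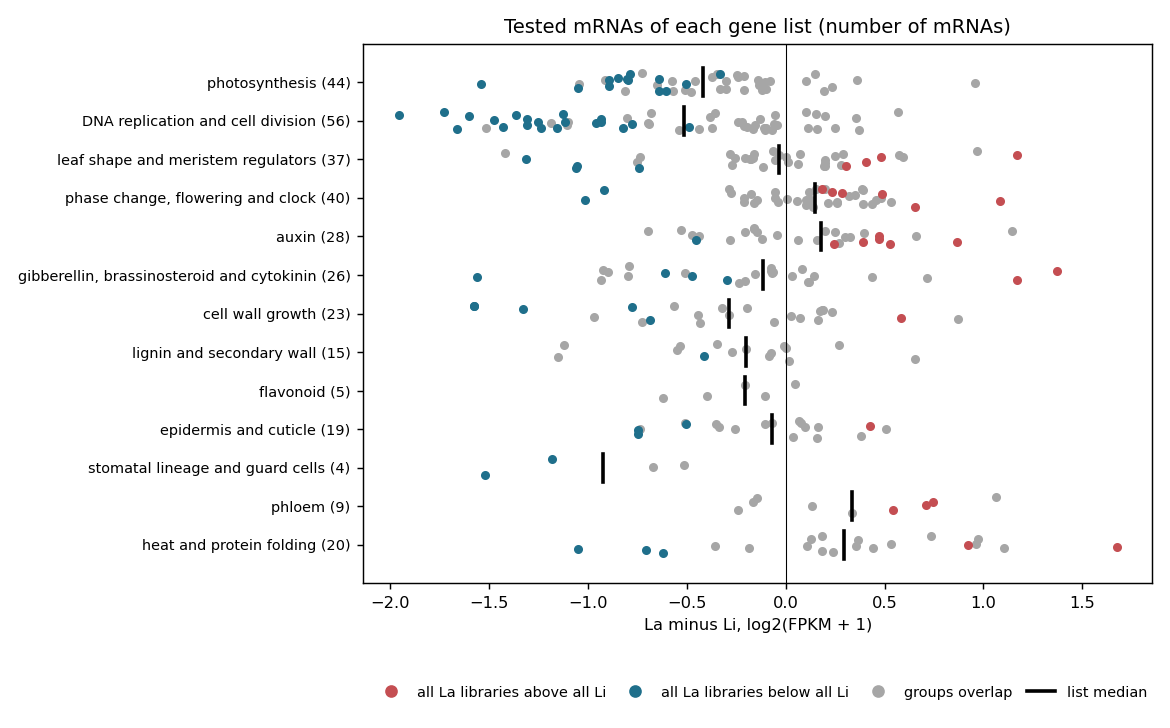
Difference between La and Li (log2(FPKM + 1), x axis) of each tested mRNA in 13 gene lists drawn up by symbol, with the number of mRNAs in brackets and a black bar at the list median. Red points have all La libraries above all Li libraries, and blue points have all La libraries below (20 of 56 division mRNAs and 13 of 44 photosynthesis mRNAs).

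A second group of lists was drawn from product names in the study's own table. That table held RNAs whose mean changed in 1 direction from Li to Bo, so the sign of their La and Li difference was largely set by how it was made and is no independent evidence of direction. Of the 1057 tested mRNAs of the table, 181 (17.1%) lay above and 174 (16.5%) below, beside 12.7% and 12.9% of all mRNAs. Among the 479 with a higher mean in Bo than in Li, 181 (37.8%) lay above and 0 below, and among the other 578, 0 lay above and 174 (30.1%) below. Of the 1057, 2 passed the adjusted test. Of 7 MADS-box mRNAs, 6 (85.7%) lay above in La and 0 below (median 1.04), and the JOINTLESS-like XM_011044761.1 was the member that passed. A second JOINTLESS-like mRNA (XM_011024751.1, LOC105124649) had 18.6, 9.40 and 15.1 FPKM in La, against 0.743, 1.40 and 4.08 FPKM in Li (2.42 ± 0.44, SE, limma adjusted p = 0.102). A SOC1-like mRNA (XM_011036620.1), whose Arabidopsis relative promotes flowering, had 112, 123.3 and 126 FPKM in La, against 72.3, 42.8 and 102 FPKM in Li (0.81 ± 0.32, limma adjusted p = 0.313).

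Of 8 SPL mRNAs, 6 lay above and 0 below (median 0.58). The SPL7 variants XM_011016331.1 and XM_011016332.1 were listed at the same values, 8.57, 13.0 and 12.3 FPKM in La, against 7.99, 4.79 and 5.11 FPKM in Li (0.83 ± 0.27, SE, limma adjusted p = 0.2501). They are 1 measurement, but count as 2 in the 6, the 8 and the median. Of 10 light harvesting and Rubisco mRNAs, 0 lay above and 3 below. The median was -0.82, against -0.51 without La3 and -0.41 without Li1 and La3. LHCA5 and LHCB3 are in both this and the photosynthesis list. A Rubisco small chain mRNA of this list (XM_011017408.1) was near 0 in La1 and La2 and had 589 FPKM in La3, against 297, 2516 and 2362 FPKM in Li, while the more abundant copy XM_011022942.1 had 2680, 3442 and 1609 FPKM in La, against 5655, 2885 and 2604 FPKM in Li. Near-identical Rubisco copies share reads, so the levels of single copies are uncertain.

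The remaining product lists were mixed. Among 8 Aux/IAA mRNAs, which repress auxin response, 1 lay above (IAA14-like, 105, 82.6 and 156 FPKM in La, against 76.9, 62.5 and 62.4 FPKM in Li) and 2 below, both auxin-induced protein 22D genes. Of 5 XTH mRNAs for wall-remodelling enzymes 1 (20.0%) lay above and 0 below, but the median was -0.72, with only 1 difference positive. Of 3 laccase and peroxidase mRNAs 0 lay above and 1 (33.3%) below. The member below was peroxidase 42 (PRXR1), with 155, 159 and 72.0 FPKM in La, against 235, 242 and 276 FPKM in Li. The median of these 3 was 0.45 (0.026 without La3 and 0.81 without La2), with 2 differences positive. None of the 8 aquaporin, 8 histone or 2 YABBY and KAN mRNAs had groups that did not overlap, and their medians of -0.77, -0.86 and -0.67 moved with single libraries. At an unadjusted p under 0.05, 2 histone mRNAs were higher in La and 0 lower, against the sign of the histone median. In the aquaporin list and in the YABBY and KAN list, 1 mRNA each was lower and 0 higher. Without La3 the aquaporin median was -0.39 and the histone median -0.19, and the YABBY and KAN median was -0.29 without La2 and -0.42 without Li3.

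The 5 most abundant mRNAs of the 6 libraries did not pass. XM_011020386.1 (LOC105121653) had 13262, 14934 and 13906 FPKM in La, against 13723, 14515 and 13115 FPKM in Li (0.03 ± 1.19, SE, limma adjusted p = 0.994). XM_011008938.1 (LOC105112983) had 6332, 4539 and 6639 FPKM in La, against 6849, 8069 and 7729 FPKM in Li (-0.39 ± 0.82, limma adjusted p = 0.840). XM_011020386.1 lay between 10855 and 16206 FPKM in all 12 libraries, and its La and Li libraries overlapped, while all La libraries lay below all Li libraries for XM_011008938.1. The standard errors were widened by the variance trend of the fit at such levels. From the 12 values of each mRNA alone they were 0.14 and 0.43 (log2), and with no trend neither passed (limma adjusted p = 0.960 and 0.658).

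Of the 1313 lncRNAs, 3 (0.228%) passed, 1 higher (0.0762%) and 2 lower (0.152%) in La, and 132 (10.1%) had an unadjusted p under 0.05, 78 higher (5.94%) and 54 lower (4.11%). The groups did not overlap in 245 lncRNAs (18.7%), 119 with La above (9.06%) and 126 with La below (9.6%). The median difference was 0.03. The 1032 annotated lncRNAs and the 281 assembled by the authors had medians of 0.02 and 0.08. When La and Ov libraries of the same number were treated as correlated, 1 lncRNA passed. Without Li1 19 passed (11 higher, 8 lower), and 0 passed without La2, La3, Li2 or Li3.

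XR_841260.1 (LOC105120131) rose in La. It had 22.3, 19.8 and 28.2 FPKM in La, against 5.08, 2.07 and 3.09 FPKM in Li, a log2 difference of 2.51 ± 0.35 (SE, limma adjusted p = 0.0201). The lowest La library (La2) lay far above the highest Li library (Li1), and the call was lost without La2, La3, Li2 or Li3 and with only the La and Li libraries fitted (limma adjusted p = 0.116). XR_841316.1 (LOC105120379) fell, with less than 0.1 FPKM in every La library, against 79.8, 199 and 221 FPKM in Li, a difference of -7.26 ± 1.26 (limma adjusted p = 0.0468). Its call was lost in 14 of 22 alternatives, among them with La and Ov numbers treated as correlated (limma adjusted p = 0.0567), without any single La or Ov library, and without Li2, Li3 or Bo1.

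TCONS_00036043, an assembled lncRNA of 2 exons and 524 bases on scaffold NW_011499922.1 (273611 to 293616, plus strand, PopEup_1.0), also fell. It had 0.499, 0.253 and 0.0425 FPKM in La, against 7.89, 3.02 and 2.76 FPKM in Li, a log2 difference of -2.03 ± 0.35 (SE, limma adjusted p = 0.0468). The call was lost in 17 of 21 alternatives, among them without any single La, Ov or Bo library, without Li2 and without Li3. It was also lost with La and Ov numbers treated as correlated (limma adjusted p = 0.0567). The authors' file classes TCONS_00036043 as overlapping an exon of XM_011040124.1 (LOC105135304) on the opposite strand. That mRNA had 4.98, 2.26 and 10.4 FPKM in La, against 6.27, 14.8 and 12.4 FPKM in Li (-0.93 ± 0.43, limma adjusted p = 0.368), with an overlap between La3 and Li1. The libraries kept the strand and the authors ran eXpress in its stranded mode, so reads of the pair were assigned by strand.

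The next lncRNAs by p did not pass. XR_841839.1 (LOC105123342) had 12.5, 7.94 and 34.4 FPKM in La, against 3.56, 0.0894 and 0.0141 FPKM in Li (3.24 ± 0.64, SE, limma adjusted p = 0.107), and XR_841838.1 (LOC105123340) had 138, 54.8 and 67.3 FPKM in La, against 28.6, 10.7 and 7.06 FPKM in Li (2.52 ± 0.52, limma adjusted p = 0.110). In both, Li1 was the Li library nearest to La. TCONS_00028453, on scaffold NW_011499891.1 (41653 to 43086, minus strand) away from annotated genes, had 0.322, 1.19 and 0.839 FPKM in La, against 2.79, 5.09 and 12.3 FPKM in Li (-1.95 ± 0.44, limma adjusted p = 0.110).

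The circRNAs are given in RPM (back-splice junction reads scaled to the number of reads in the library) and, where the steps of the values allow, in reads. La libraries held 224, 184 and 281 circRNAs above 0, against 178, 153 and 187 in Li. The mean was 230 ± 48.7 in La and 173 ± 17.6 in Li (SD, n = 3), a difference of 57.0 with an overlap between La2 and Li3 (exact permutation test, two-sided, p = 0.2, where the smallest p for 3 against 3 is 0.1). La3 held the most. Without it the difference was 31.3. The lowest value listed in each library stood for 2 junction reads, so a circRNA with 1 read could not be seen.

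Most circRNAs were seen in a single library. Of the 737 above 0 in at least 1 of the 6, 354 were above 0 in La only, 218 in Li only and 165 in both. In 320 of the 354 and 199 of the 218 the circRNA was in 1 library, and 25 were in all 6. Spearman's correlation between libraries over the circRNAs was 0.227 on average between La and Li, against 0.250 within La and 0.360 within Li.

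Junction reads summed to 5001, 3421 and 6535 in La, against 5479, 7741 and 10106 in Li. The mean was 4986 ± 1557 in La and 7775 ± 2314 in Li (SD, n = 3, difference -2790, exact permutation p = 0.2). A single circRNA set this difference. circRNA_0974 took 2087, 978 and 2107 reads in La, against 3058, 5198 and 7270 reads in Li, which was 41.7%, 28.6% and 32.2% of the summed circRNA RPM in La, against 55.8%, 67.1% and 71.9% in Li. Without it the sums were 2914, 2443 and 4428 in La, against 2421, 2543 and 2836 in Li, with the mean higher in La by 662 reads (exact permutation p = 0.4).

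circRNA_0974 spans 44746 to 105870 on the minus strand of scaffold NW_011500185.1 (PopEup_1.0) and overlaps XM_011007004.1 (LOC105111597). It had 25.1, 11.7 and 24.6 RPM in La, against 36.1, 61.3 and 84.5 RPM in Li, with no overlap between the groups (-1.56 ± 0.59 log2, SE, limma adjusted p = 0.225). The mRNA had 856, 432 and 906 FPKM in La, against 1557, 2280 and 2845 FPKM in Li (-1.64 ± 0.62, limma adjusted p = 0.305). La2 was the lowest and Li3 the highest library for both the circRNA and the mRNA. The other groups spread widely, from 597 reads in Bo3 to 3353 in Bo1.

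None of the 218 circRNAs passed (limma, smallest adjusted p 0.225), which is 0%, and 38 (17.4%) had an unadjusted p under 0.05, 19 (8.72%) in each direction. Only 1 passed under any setting that kept all 12 libraries, circRNA_0974 with no filter on low values, and between 0 and 9 passed without 1 library. In 140 of the 218 the difference was positive, with a median of 0.25. The groups did not overlap in 22 (10.1%), 17 with La above (7.8%) and 5 with La below (2.29%).

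The circRNAs above 0 in all 3 libraries of 1 group and at 0 in the other numbered 6 for La and 1 for Li. circRNA_0351 had 6, 10 and 29 reads in La and 0 in Li, circRNA_0771 had 25, 12 and 14 reads in La and 0 in Li, and circRNA_0958 had 21, 14 and 13 reads in La and 0 in Li. circRNA_1020 (5, 2 and 19 reads in La), circRNA_0431 (3, 3 and 10 reads) and circRNA_0914 (4, 5 and 3 reads) were thinner. circRNA_0725, the one of Li, had 2, 3 and 3 reads in Li and 0 in La. All 7 were also seen in an Ov or Bo library. circRNA_0351 also had 34, 7 and 26 reads in Ov and 5, 5 and 9 in Bo, and circRNA_0725 had 3 reads in Ov2.

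circRNA_0351 and circRNA_0349 share a splice end on scaffold NW_011499873.1 (361483 to 378394 and 361483 to 368542, minus strand) and overlap the same mRNA, XM_011029125.1 (LOC105127732). circRNA_0349 had 24, 12 and 48 reads in La, against 0, 4 and 5 reads in Li (3.05 ± 0.93 log2, SE, limma adjusted p = 0.225). The mRNA had 2.91, 2.73 and 12.8 FPKM in La, against 0.600, 0.707 and 0.532 FPKM in Li (1.86 ± 0.54, limma adjusted p = 0.225). La3 was the highest library for all 3 RNAs of this locus.

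circRNA_0771 (NW_011500003.1, 452498 to 468956, minus strand) overlaps XM_011048079.1 (LOC105141016), which had 16.2, 11.0 and 3.35 FPKM in La, against 1.90, 0.241 and 0.0263 FPKM in Li (2.64 ± 0.78, SE, limma adjusted p = 0.226). A host mRNA is here the overlapping transcript that the authors list for a circRNA. circRNA_0958, circRNA_0826 and circRNA_0979 span well beyond theirs, so they need not be spliced from that gene. For circRNA_0958, circRNA_1020 and circRNA_0431 the groups overlapped in the host mRNA, with host differences of -1.04, 0.61 and -0.13. The host transcript of circRNA_0914, XM_011004984.1 of NRPC2, was below the level tested, with at most 0.464 FPKM in La and Li. The other transcript of that gene, XM_011004985.1, had 6.65, 6.10 and 6.98 FPKM in La, against 6.99, 9.67 and 7.88 FPKM in Li (-0.27, limma adjusted p = 0.601).

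Among circRNAs lower in La, circRNA_0826 had 0, 0 and 37 reads in La, against 46, 70 and 60 reads in Li, and its host XM_011001126.1 had 178, 229 and 89.3 FPKM in La, against 202, 279 and 261 FPKM in Li. circRNA_0979 (18 reads in Li2 and 32 in Li3) and circRNA_0027 (9 and 12 reads) were at 0 in all La libraries, and also in Li1. Over the 186 tested circRNAs with a tested host mRNA, on 161 hosts, 105 differed in the same direction as the host between La and Li. That count was not tested, and 46 of the 186 shared a host with another circRNA. For scale, differences were positive in 64.2% of all tested circRNAs and 49.6% of all tested mRNAs.

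**Figure D5:**
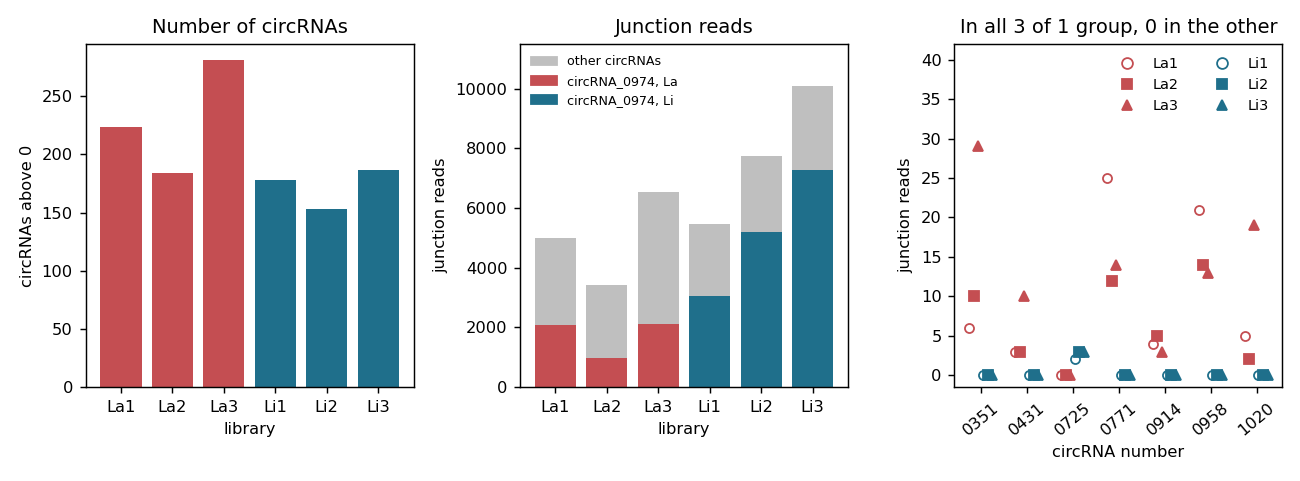
Number of circRNAs above 0 (left), junction reads split into circRNA_0974 and all others (middle) and reads of the circRNAs seen in all 3 libraries of 1 group and none of the other (right), by library, La left of Li. La3 has the most circRNAs (281), and circRNA_0974 takes 3058 to 7270 reads in Li against 978 to 2107 in La.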

How the data were processed

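The authors aligned the reads to the RefSeq transcripts of PopEup_1.0 with Bowtie2, keeping multiple alignments, and estimated mRNA and lncRNA levels with eXpress in its stranded mode, so the deposited values are FPKM and reads shared by isoforms or near-identical transcripts are divided among them. New lncRNAs were assembled by the authors with TopHat2 and Cufflinks. The authors called circRNAs with CIRI and deposited RPM of back-splice junction reads. All circRNA values were whole multiples of 1 step in their library, the lowest value being 2 steps (tolerance 0.01), which gave the junction reads and the library sizes. The depth behind the FPKM values is unknown.

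Values were analysed as log2(FPKM + 1), or for circRNAs as log2(RPM + 0.0116), with limma 3.58.1 in R 4.3.3. Group means of all 12 libraries were fitted with a trend in the variance, La minus Li was tested two-sided, and p-values were adjusted by Benjamini-Hochberg within each RNA class. The fit was tested on simulated data. Single values per library were compared by exact permutation tests.

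The members and lists were chosen with earlier results of these data known. By rule the text names every RNA that passed, the 10 named mRNAs in each direction with the largest difference (unadjusted p under 0.05, no overlap, at least 5 FPKM in the higher group), the 3 lncRNAs and 3 circRNAs in each direction with the smallest p, circRNAs seen in all libraries of 1 group only, the 2 members of each list with the largest difference among those whose groups did not overlap, circRNA_0974, the host mRNAs and the 5 most abundant mRNAs. Other list members and genes were named after their values were seen. Lists planned by protein motif could not be made without protein sequences, so lists by RefSeq symbol (4145 of 49676 mRNAs had a symbol other than a locus number, and 49440 had any) and by product name (1241 mRNAs in the study's table) were used. Symbols come from a RefSeq table of a later assembly and were used as names only.

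Same-numbered La and Ov libraries deviated together (Pearson's r of the deviations from the group means over mRNAs 0.25, 0.65 and 0.67), so a fit that treats them as correlated is given beside the counts. Alternatives were other filters, pseudocounts, scalings, variance settings, blocks and sets of libraries.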

Additional observations from a re-analysis of the deposited data

How the results depend on the processing

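The number of mRNAs that passed (9) was 4 in a fit of only the La and Li libraries, 4 with a filter of 5 FPKM, 4 with La and Ov numbers treated as correlated, and 3 to 164 without 1 library, the highest without Li1. Of the lncRNAs (3), 1 passed in each of the fit of only La and Li, the correlated fit and the fit with no variance trend, and 0 to 19 without 1 library. No circRNA passed except 1 with no filter and 0 to 9 without 1 library. At an unadjusted p under 0.05 the counts were 4412 mRNAs, 132 lncRNAs and 38 circRNAs. Same-numbered La and Li libraries did not deviate together (r -0.02, -0.09 and 0.11 over mRNAs). With the replicate number as a block, 12 mRNAs and 2 lncRNAs passed over all 12 libraries, and 0 mRNAs and 1 lncRNA over La and Li alone. In alternatives chosen after seeing the data, 17 genes passed with transcripts summed, and 67 mRNAs without Li1 and La3.

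The difference in junction reads (-2790) turned to 661.67 without circRNA_0974. The sign also turned for 4 mRNAs that had not passed. Without 1 library, XM_011033625.1 ran from -0.29 to 0.013 (positive without Li2), XM_011020386.1 from -0.020 (without La2) to 0.065, with -0.0098 without Li3, XM_011020411.1 from -0.18 (without Li3) to 0.28, with -0.020 without La2 and -0.048 without Li2, and XM_011002950.1 from -0.43 to 0.29 (without La3). XM_011020411.1 was at -0.0064 with upper quartile scaling. The causes were not tested. Without 1 La or Li library the medians of 18 of the 22 lists moved by over 1.5 times or turned in sign (2 of them turned), and those of the MADS, SPL, XTH and stomatal lists did not. With a pseudocount of 0.1 the heat, phloem, lignin and gibberellin list medians were 0.72, 0.62, -0.40 and -0.20, and with a filter of 5 FPKM the lignin, heat and leaf shape medians were -0.41, 0.18 and -0.16. With 3 libraries a group the exact tests could not go below 0.1.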
